A study of Mus musculus with 6 samples.

Results

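Lcor and 4 other corepressors of nuclear receptors, Ncor1, Nrip1, Ctbp1 and Ctbp2, were followed through the RNA fractions of mouse macrophages. The cells were labelled Dicer WT or Dicer KO, and both groups were labelled LysM-Cre and Apoe-/-. The members are these 5 genes by name on the array, measured by 10 probes of 55627, where the array names 34755 genes in all. Lcor and Nrip1 had 2 probes each, Ncor1 had 4, and Ctbp1 and Ctbp2 had 1 each. By its brighter probe, Lcor RNA in input was 5.28-fold higher in the KO cells than in the WT cells, with 1 array each. Genotype could not be told apart from the sex of the cells or from slide row. The signal of that probe after AGO2 precipitation was 2.59 in KO and 2.65 in WT on a log2 scale. None of the other 4 genes, each by its brightest probe, differed by as much as 2-fold in input.

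Nuclear receptors are transcription factors that switch between corepressors and coactivators when a ligand binds. LCOR and NRIP1 (also called RIP140) are recruited by receptors that carry an agonist and damp transcription by bringing in CtBP proteins and histone deacetylases. NCOR1 sits instead mainly on receptors without ligand and holds a histone deacetylase complex there. CTBP1 and CTBP2 are close relatives that bind dinucleotides such as NADH and dock onto a short motif in LCOR, NRIP1 and many repressors. In macrophages the NCOR1 complex restrains inflammatory and lipid metabolism genes that are under the control of receptors such as the LXRs and PPARs.

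Bone marrow of mice aged 6 to 8 weeks was grown for 7 days with L929-conditioned medium, which supplies the macrophage growth factor. The WT cells were LysM-Cre/Dicer wt/wt/Apoe-/- and the KO cells LysM-Cre/Dicer flox/flox/Apoe-/-, so by the labels both groups carried LysM-Cre and an Apoe-/- genotype, and only the KO cells had floxed Dicer alleles. Input RNA of the lysate, RNA that came down over 7 hours with a mouse monoclonal against AGO2 (an Argonaute protein, the core of miRNA complexes) and RNA that came down with control IgG were pre-amplified, and 500 ng of cDNA of each was labelled with Cy3 and hybridised to 1 array, giving 6 arrays and 1 per group. LysM-Cre acts in myeloid cells, the labels give neither the number of Cre alleles nor the floxed exons, and the sources used here do not say which fractions came from the same culture or animal.

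With 1 array per group no difference had a replicate check. All values are log2 signal relative to the 75th percentile of the array, and 0 therefore marks a fairly bright spot. The ± after a value is the error that the scanner software gives for the spots, combined over the arrays, and it leaves out culture, precipitation and amplification. Spots repeated 10 times on an array had an SD of 0.14 to 0.17. Between 37.6% and 46.3% of spots lay well above background, and 0 spots were saturated. A probe counts as measured in a comparison if no array of that comparison left it dim, that is, not well above background, and 2-fold is a size here, not a test. Where only the brighter array was above background, the fold is a bound ("at least") against the lowest spot that counted as above background on the dim array, or against the dim probe's own value if that was higher.

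The labels and the RNA differed in ways that go with genotype. The mice are labelled male, yet Xist, the RNA of the inactive X, was above background on 3 of 3 WT arrays and 0 of 3 KO arrays, and the Y-linked Ddx3y on 0 of 3 WT and 3 of 3 KO arrays. The KO arrays also lay on 1 row of the slide and the WT arrays on the other, so that genotype, the sex of the cells and slide row cannot be told apart in any KO and WT difference. The Dicer1 signal fell by 0.77 from WT input (0.22) to KO input (-0.55), and was 0.93 in WT and 0.94 in KO AGO2-RIP, with a probe that may lie outside the deleted part. Apoe still gave signal above background on all 6 arrays (0.17 in WT and -0.01 in KO input), and whether its probe lies in the part the mutation removes is not known here. Of 10 macrophage markers, 9 were above background on all 6 arrays. The exception was Lyz2, the gene once called LysM, which was 5.66, 4.11 and 3.56 on the KO input, IgG-RIP and AGO2-RIP arrays and above background on only 1 WT array (IgG-RIP, -1.16). Cre was inserted in this locus in LysM-Cre mice, so a difference in Cre alleles between the groups cannot be told apart from the Dicer genotype either. Of 32 markers of B, T and NK cells, neutrophils, dendritic cells, red cells and megakaryocytes, and stroma, 20 were above background on no array, among them Ms4a1, Cd3d, Cd3g, Ly6g, Ltf, Klf1, Col1a1 and Dcn. Another 8 were so on some arrays (Pax5 and Cd3e on 5, Col1a2 on 4, Flt3 on 3), and Siglech, Pf4, Nkg7 and Hba-a1 on all 6. Their part in the results was not tested. The signal of the 10 macrophage markers, summed in units of the array's 75th percentile, ran from 950 to 1405 on the WT arrays and from 889 to 1295 on the KO arrays.

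Lcor is paired with miR-10a in what is known of the study, so the miRNA is shown with its sister miR-10b, which has the same seed. The mature sequences are those of RefSeq (GRCm38.p6, chromosome 11 for miR-10a and chromosome 2 for miR-10b), 5′ to 3′, with the seed of bases 2 to 8 in capitals.
miR-10a-5p: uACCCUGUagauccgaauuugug
miR-10b-5p: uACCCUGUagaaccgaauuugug
The sisters differ by U12A, counted from the 5′ end of miR-10a. A transcript paired to the seed holds ACAGGGT, and 0.354% of all 60-base probes contain it as printed on the array strand, but 0 of the 10 member probes do. The same held for the seed matches of 6 other macrophage miRNAs (let-7a, miR-155, miR-17, miR-21a, miR-223 and miR-146a), found in 0.297% to 0.532% of all probes and in 0 member probes. The probes are short windows, and the letters of the rest of the transcripts were not used here.

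Lcor was read by 2 probes in the same part of the gene on chromosome 19 (mm9, plus strand), whose starts lie 1990 bases apart. Probe 1 (41636163 to 41636222) was designed on an Ensembl transcript of Lcor and probe 2 (41634173 to 41634232) on its RefSeq transcript. None of the 3 forward reading frames runs through probe 1 without a stop codon. The files do not say in which exon or untranslated region either lies.

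Lcor probe 1 was well above background on all 6 arrays. Its WT values were 0.42 in input, -0.29 in IgG-RIP and 2.65 in AGO2-RIP, and its KO values were 2.82, 1.99 and 2.59. Thus 4 arrays lay close together at the top, namely the 3 KO arrays and the WT AGO2-RIP array, and the WT input and WT IgG-RIP arrays lay well below them. In order of level, KO input, WT AGO2-RIP and KO AGO2-RIP did not differ from their neighbours by more than 2 times the scanner error, with gaps of 0.18 and 0.05. The next steps down were larger than that, 0.60 to KO IgG-RIP, 1.57 to WT input and 0.72 to WT IgG-RIP.

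**Figure D1:**
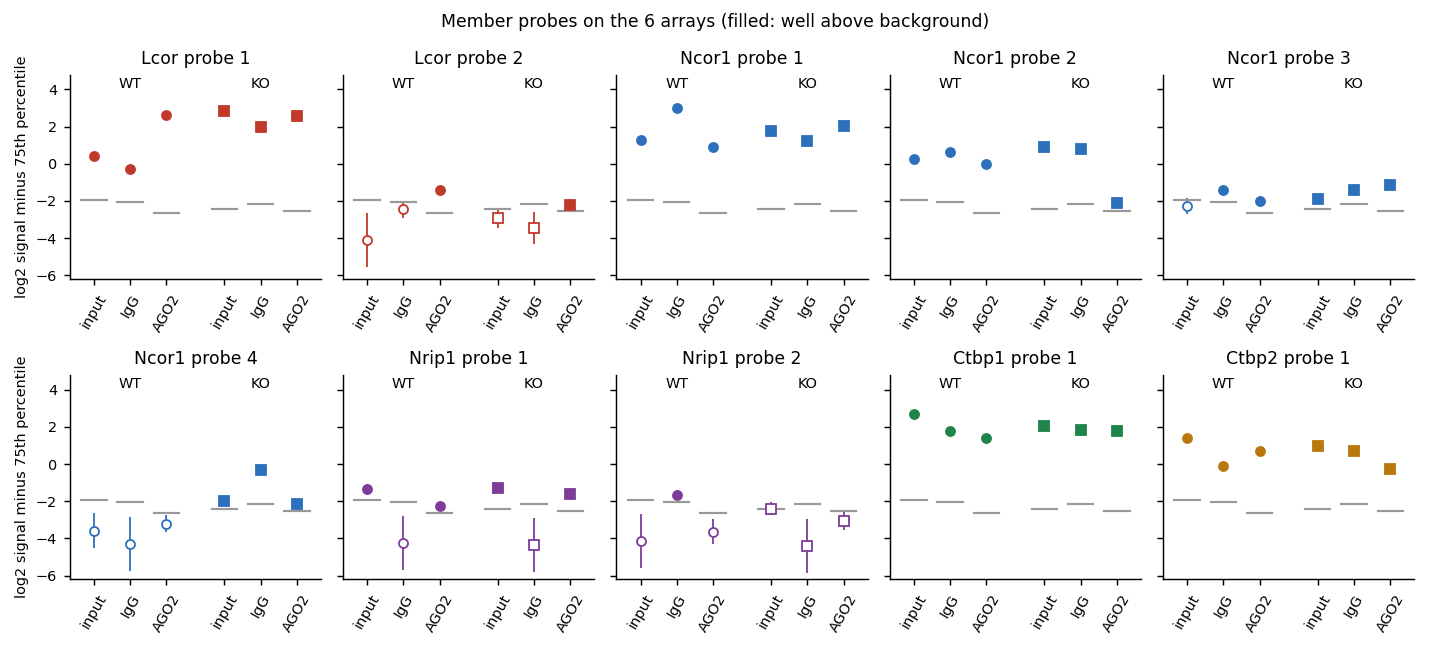
Log2 signal of the 10 member probes relative to each array's 75th percentile on the 3 WT arrays (circles) and the 3 KO arrays (squares), with the scanner error as bars, filled where the spot was well above background and with the lowest signal that counted as such in grey. Lcor probe 1 is low only on the WT input (0.42) and WT IgG-RIP (-0.29) arrays, and probes of 1 gene, such as the 4 of Ncor1, do not move together.

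In input, the unprecipitated RNA, Lcor probe 1 was 2.40 ± 0.21 higher in KO than in WT (5.28-fold). Only 4 of 19879 measured probes stood higher. The difference was about as large in the RNA that came down with IgG, 2.29 ± 0.22 (4.87-fold, rank 292 of 20138), though normexp background correction lowered it to 1.60. In the AGO2-RIP it was -0.05 ± 0.20, within the scanner error, with 49.1% of measured probes below it, and it turned positive when arrays were scaled by quantiles (0.21) or on the probes above background on all 6 arrays (0.22). Lcor was the only one of the 5 members past 2-fold in KO minus WT input, where 2.75% of all measured genes were. The median of the 5 genes was 0.06 and that of all genes -0.08. In these whole cultures, fewer cells that express a gene and less of its RNA per cell cannot be told apart.

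The AGO2 precipitation asks which transcripts sit in miRNA complexes, with IgG as the control for unspecific RNA. In WT cells the AGO2-RIP value of Lcor probe 1 exceeded the IgG-RIP value by 2.94 ± 0.22 (7.67-fold), above 97.2% of measured probes. In KO cells it did so by 0.60 ± 0.20 (1.52-fold), above 81.2% of them. The WT difference exceeded the KO difference by 2.34 ± 0.30, more than for 96.3% of probes. This gap has no replicate and was not tested.

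Against input the pattern of Lcor was similar. AGO2-RIP was 2.22 ± 0.21 above input in WT (4.67-fold, above 96.9% of probes). In KO it was -0.23 ± 0.20 relative to input, which became 0.22 with quantile scaling and 0.33 with the percentile taken over probes above background on all 6 arrays. The WT minus KO difference of the 2 values was 2.45 ± 0.29, more than for 99.5% of probes. Of the levels behind these gaps, the input and IgG-RIP values of Lcor probe 1 lay apart between the genotypes by over 2-fold, and its AGO2-RIP values lay within the scanner error. IgG-RIP was 0.72 below input in WT (-0.72 ± 0.23, but 0.03 when scaled on the probes above background on all 6 arrays) and 0.83 below it in KO (-0.83 ± 0.20).

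Lcor probe 2 was much dimmer. It was above background only on the AGO2-RIP arrays, at -1.43 in WT and -2.22 in KO. On the WT input (-4.12), WT IgG-RIP (-2.45), KO input (-2.94) and KO IgG-RIP (-3.46) arrays it was not well above background. AGO2-RIP was therefore at least 1.52-fold above IgG-RIP in WT and at least 1.43-fold above input in WT. In KO it was at least 1.16-fold above input under the main scaling, and no bound could be given against IgG-RIP. That bound, 0.21 in log2, is smaller than the scanner error of the KO AGO2-RIP spot, 0.31. Scaling moved the median of all genes in that comparison by up to 0.56. By probe 1 the same difference was -0.23, so no KO enrichment over input can be given for Lcor. KO minus WT was -0.80 ± 0.37 in AGO2-RIP. Probe 2 gives no value for the KO and WT difference in input, since both spots were dim, so the 5.28-fold difference rests on probe 1.

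**Figure D2:**
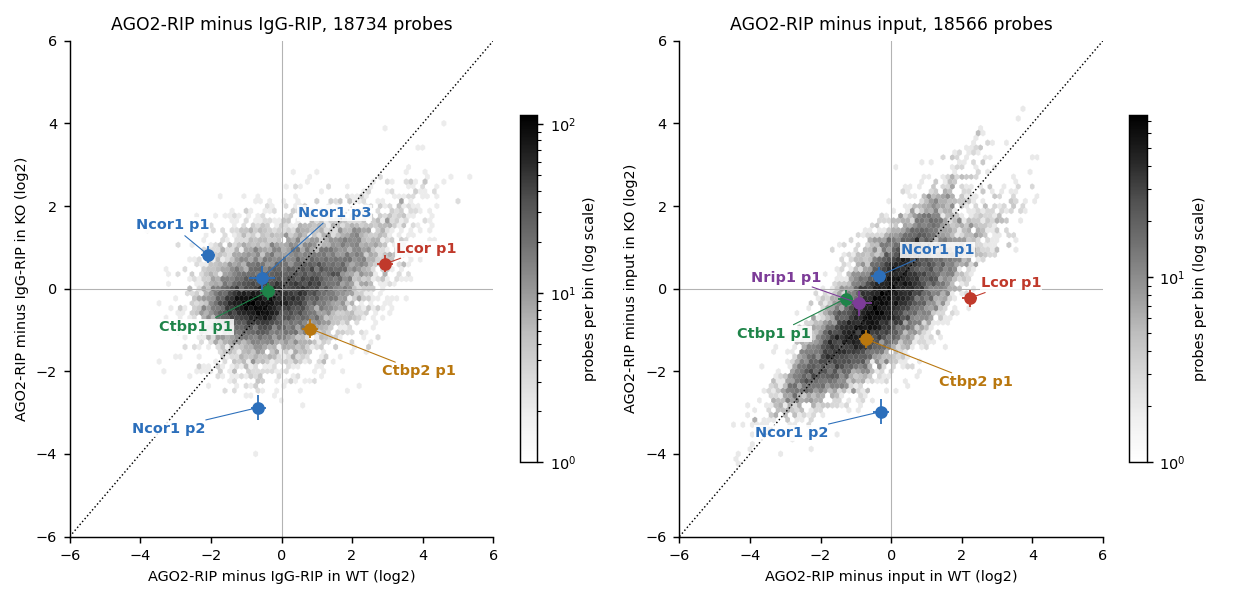
Log2 difference of AGO2-RIP from IgG-RIP (left) and from input (right) in KO (vertical axis) against WT (horizontal axis), with all probes measured on the 4 arrays as grey bins, the member probes in colour with scanner errors, and the line of equal differences dotted; 7 probes on the left and 1 on the right lie outside the frame. Lcor probe 1 (2.94 in WT, 0.60 in KO against IgG-RIP) lies to the right of the bulk, Ncor1 probe 1 (-2.09, 0.82) to its left and Ncor1 probe 2 (-0.66, -2.88) below it. Against input the KO value of Lcor probe 1 (-0.23) and the values of Ncor1 probe 1 (-0.35 in WT, 0.31 in KO), Nrip1 probe 1 in KO (-0.36) and Ctbp1 in KO (-0.24) change sign under another scaling.

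Genes with a pattern close to that of Lcor probe 1 were sought among the 10960 probes above background on all 6 arrays whose gene was named through RefSeq (8611 genes), by the root mean square difference of values centred on each probe's mean. The 5 nearest were Slc40a1 (0.30), which encodes the iron exporter ferroportin, Rsad2 (0.42), which encodes the interferon-induced protein viperin, Celf1 (0.45), an RNA-binding protein gene, Dnmt3a (0.48), a DNA methyltransferase gene, and Arid5b (0.50), a DNA-binding protein gene read here by a clone with a retained intron. The median over all probes was 1.35. Like Lcor, these 5 were low on the WT input and WT IgG-RIP arrays. Their KO minus WT differences in input were 1.42, 2.23, 1.46, 1.15 and 1.38, and in AGO2-RIP -0.16, 0.04, -0.14, -0.09 and -0.52. When ranked by Pearson correlation over the 6 arrays, 2 of the 5 remained among the nearest (Slc40a1 and Dnmt3a), with Pik3cd and Hmgcs1 also among them. The 6 arrays are 1 per group, so this likeness is a description.

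**Figure D3:**
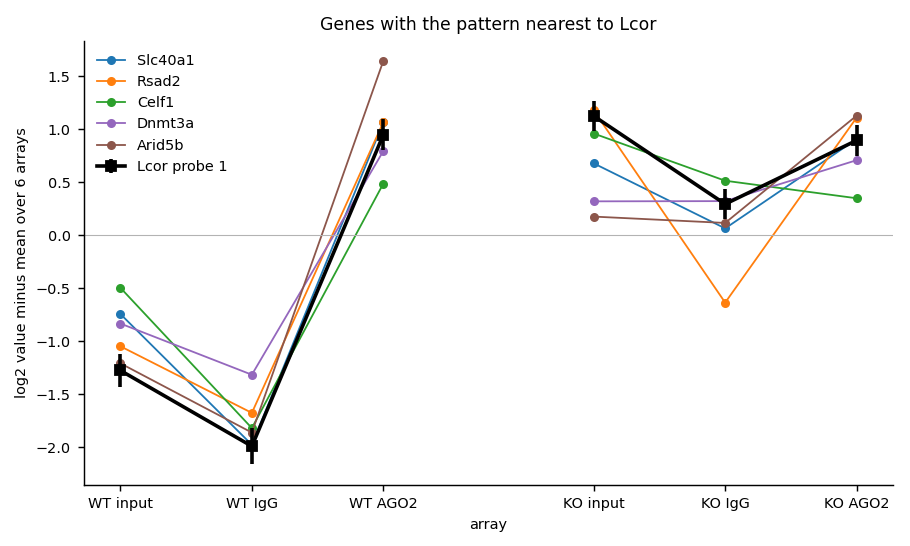
Log2 value minus the gene's mean over the 6 arrays for Lcor probe 1 (black squares, scanner error as bars) and the 5 genes nearest to it, by array. All are below their mean on the WT input and WT IgG-RIP arrays and above it on the WT AGO2-RIP array; Rsad2 also falls below its mean on the KO IgG-RIP array.

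Ncor1, the scaffold of the NCoR complex, was read by 4 probes on chromosome 11 (mm9, minus strand), each designed on a different transcript record. Probe 1 spans 62180446 to 62180505, probe 2 spans 62134649 to 62134708, probe 3 spans 62215073 to 62215132 and probe 4 spans 62130192 to 62130251. Probe 2 is printed for the letters that its open frame encodes, whose place in the protein was not looked up. Its capitals mark the 15 bases that encode, in its single open frame, the letters of a CoRNR box, the short helix by which NCOR1 holds a nuclear receptor. Such a box can be read in 2.32% of the 44107 probes with an open forward frame, so the letters alone mark no site.
Ncor1 probe 2: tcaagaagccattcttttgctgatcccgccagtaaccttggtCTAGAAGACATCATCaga
Probes 1 and 4 have 0 open forward frames.

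Ncor1 probe 1, the brightest, was 1.28 in WT input, 3.01 in WT IgG-RIP and 0.93 in WT AGO2-RIP, and 1.75, 1.24 and 2.06 on the same KO arrays. The WT IgG-RIP array stood highest by 0.96, and the gaps between KO AGO2-RIP and KO input, between WT input and KO IgG-RIP, and from there to WT AGO2-RIP were within 2 times the error. Probe 2 was 0.28, 0.65 and -0.01 in WT and 0.89, 0.79 and -2.08 in KO. Here 5 arrays lay within neighbouring steps of at most 0.37, and the KO AGO2-RIP array lay 2.07 below the next. The array that stood apart was thus a different one for each probe.

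In input the probes gave similar, small differences for Ncor1. KO minus WT was 0.47 ± 0.21 by probe 1 (1.39-fold) and 0.62 ± 0.22 by probe 2 (1.53-fold), under the 2-fold size. After precipitation they diverged. AGO2-RIP minus IgG-RIP was -2.09 ± 0.21 in WT by probe 1 and -0.66 ± 0.22 by probe 2, and in KO 0.82 ± 0.21 by probe 1 and -2.88 ± 0.31 by probe 2. The spread between the 4 Ncor1 probes in that KO comparison, 3.70, was wider than for 99.2% of the 2506 genes with several measured probes, whose median spread was 0.70. A spread is the highest minus the lowest value, so it tends to widen with more probes. The genes were not matched to Ncor1 in probe number. In KO minus WT AGO2-RIP the 3 measured probes also spread widely (more than for 99.3% of genes), with 1.13 ± 0.21 by probe 1 and -2.07 ± 0.31 by probe 2. In input, where only 2 probes were measured, the spread was 0.14. No single direction in the precipitates can therefore be given for Ncor1, and the median of the differences over its measured probes was -0.80 for AGO2-RIP minus IgG-RIP in KO, 0.023 for KO minus WT IgG-RIP (probe 1 alone -1.78) and 0.83 for KO minus WT AGO2-RIP.

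The dimmer Ncor1 probes added a further pattern. Probe 3 was -2.28 (not above background), -1.42 and -1.98 in WT input, IgG-RIP and AGO2-RIP and -1.92, -1.40 and -1.15 in KO, a range of 1.13 over the 6 arrays. Probe 4 was above background on 0 of 3 WT arrays and on 3 of 3 KO arrays, at -1.98, -0.31 and -2.17 in input, IgG-RIP and AGO2-RIP. Its KO value was at least 3.30-fold above WT in IgG-RIP and at least 1.37-fold in AGO2-RIP, and no bound could be given in input.

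Nrip1 lies on chromosome 16 (mm9, minus strand) and was read by probe 1 (76291555 to 76291614) and probe 2 (76288478 to 76288537). Probe 1 was above background on both input arrays (-1.34 in WT and -1.27 in KO) and both AGO2-RIP arrays (-2.25 in WT and -1.63 in KO), and on neither IgG-RIP array (-4.24 and -4.38). The groups thus parted by fraction and not by genotype. Under the main scaling, IgG-RIP was at least 1.62-fold below input in WT and at least 1.83-fold below it in KO. The WT bound, 0.69 in log2, does not hold when arrays are scaled on the probes above background on all 6 arrays. That scaling moved IgG-RIP minus input in WT upward by 0.74. AGO2-RIP was at least 1.43-fold above IgG-RIP in KO, while no bound could be given in WT, where the AGO2-RIP spot lay below the lowest spot called on the IgG-RIP array. KO minus WT was 0.06 ± 0.32 in input and 0.62 ± 0.36 in AGO2-RIP. Relative to input, AGO2-RIP was -0.91 ± 0.38 in WT and -0.36 ± 0.29 in KO, the latter 0.20 when scaled on the probes above background on all 6 arrays. Probe 2 was above background only on the WT IgG-RIP array (-1.67), where probe 1 was dim, so the 2 probes disagree there too.

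Ctbp1 (chromosome 5, mm9 33590415 to 33590474, minus strand) had 1 probe, bright on every array. It was 2.69, 1.79 and 1.40 in WT input, IgG-RIP and AGO2-RIP and 2.03, 1.85 and 1.79 in KO. WT input stood highest by 0.66, and no later step in the order exceeded 2 times the error. KO minus WT in input was -0.66 ± 0.20 (1.58-fold lower), with 7.01% of probes below it. AGO2-RIP minus IgG-RIP was -0.39 ± 0.21 in WT and -0.07 ± 0.21 in KO, the latter 0.07 after normexp background correction. AGO2-RIP was 1.29 below input in WT (-1.29 ± 0.21, 2.45-fold) and -0.24 ± 0.20 in KO, where quantile scaling gave 0.07.

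Ctbp2 (chromosome 7, mm9 140179625 to 140179684, minus strand) also had 1 probe. It was 1.41, -0.10 and 0.70 in WT input, IgG-RIP and AGO2-RIP and 0.97, 0.72 and -0.25 in KO. The input arrays were highest in both genotypes, and the order of the precipitates was opposite between the genotypes. In KO the step from input down to IgG-RIP, 0.26, was within 2 times the error. IgG-RIP stood 0.31 above input there when scaled on the probes above background on all 6 arrays. AGO2-RIP minus IgG-RIP was 0.81 ± 0.22 in WT and -0.97 ± 0.22 in KO, with 76.2% and 11.6% of probes below. Both values were under 2-fold (but 1.11 in WT with median centring and -1.03 in KO with quantile scaling), and they differed by 1.77 ± 0.31, more than for 92.1% of probes. KO minus WT was -0.44 ± 0.21 in input, 0.82 ± 0.22 in IgG-RIP and -0.95 ± 0.22 in AGO2-RIP. The paralogs Ctbp1 and Ctbp2 thus shared the sign of the input difference, and neither reached 2-fold in it.

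**Figure D4:**
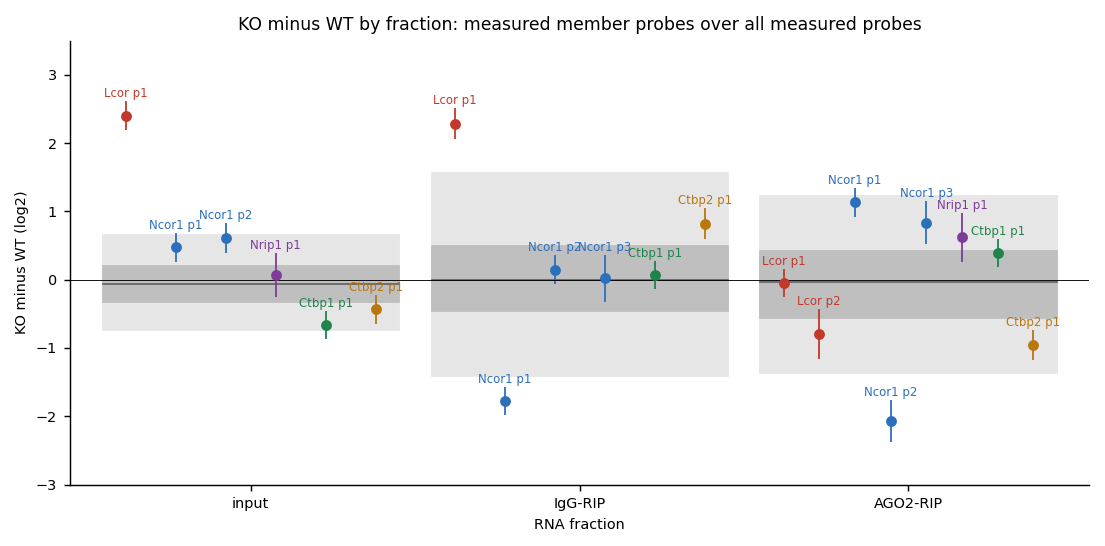
KO minus WT log2 difference in each RNA fraction for the member probes measured there (points, scanner error as bars), over the range of all measured probes, with the light box from the 5th to the 95th percentile, the dark box from the 25th to the 75th and a line at the median. Lcor probe 1 lies above the light box in input (2.40) and IgG-RIP (2.29) and at the median in AGO2-RIP (-0.05, but 0.21 to 0.22 under 2 other scalings), and Ncor1 probes 1 and 2 lie outside it in IgG-RIP (-1.78) and AGO2-RIP (-2.07).

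The members past 2-fold were also counted in the precipitates, by the brightest probe of each gene. AGO2-RIP minus IgG-RIP was past 2-fold for 2 of 4 measured members in WT (Lcor higher, Ncor1 lower), against 42.6% of all genes, and for 0 of 4 in KO, against 20.4%. AGO2-RIP minus input was past 2-fold for 2 of 5 in WT (Lcor higher, Ctbp1 lower; 41.2% of all genes) and for 1 of 5 in KO (Ctbp2 lower; 41%). KO minus WT was past 2-fold for 2 of 4 in IgG-RIP (Lcor higher, Ncor1 lower; 20%) and for 1 of 5 in AGO2-RIP (Ncor1 higher; 17.9%). The WT minus KO difference was past 2-fold for 3 of 4 over IgG-RIP (Lcor and Ctbp2 higher, Ncor1 lower; 36.7%) and for 2 of 5 over input (Lcor higher, Ctbp1 lower; 18.6%). Since a count over 4 or 5 genes moves in large steps and no test compares it with the share of all genes, it is a description. Comparisons that use the same array, such as AGO2-RIP minus IgG-RIP and AGO2-RIP minus input, share its errors.

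The only test the design allows takes fraction and genotype as additive and the way they depart from additivity as the error. In limma's test on 26873 probes above background on at least 2 arrays, 9 of the 10 member probes entered (not Nrip1 probe 2), and 0 were called at an adjusted p of 0.05 in any of the 3 contrasts. The test called 0 of all probes for AGO2-RIP minus IgG-RIP (4793 or 17.8% had an unadjusted p under 0.05), 5.69% for AGO2-RIP minus input (31.4% unadjusted) and 0 for KO minus WT (1180 or 4.39% unadjusted). Member probes with an unadjusted p under 0.05 were 1, 1 (Lcor probe 2) and 2 in the same order. For Lcor probe 1, KO minus WT over the 3 fractions was 1.54 ± 0.59 (SE; unadjusted p = 0.045, adjusted p = 1.00, limma). Its AGO2-RIP minus IgG-RIP was 1.77 ± 0.72 (adjusted p = 0.29, limma), and a value that differs between the genotypes, as here, adds to the error of this test. Among the members, Nrip1 probe 1 came closest, at 2.37 ± 0.43 for AGO2-RIP minus IgG-RIP (unadjusted p = 0.0023, adjusted p = 0.11, limma), with dim IgG-RIP spots in both genotypes. Ncor1 probe 4 gave 2.21 for KO minus WT (unadjusted p = 0.017, adjusted p = 1.00, limma), with 3 dim WT spots. The p-values measure only the spread between these 6 samples.

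Partners of the members were described in 5 lists. In KO minus WT input, 0 of 7 genes of the NCoR complex, 0 of 11 of the CtBP and CoREST complex, 0 of 14 other corepressors and 0 of 15 nuclear receptors were past 2-fold, a size that only 2.75% of all genes reached. Of 12 coactivators, Ncoa7 was (-1.07, but -0.37 after normexp). The list medians, -0.14, 0.08, 0.09, -0.20 and 0.09 in the same order with the coactivators last, lay close to the median of all genes, -0.08. Ncoa1, a receptor coactivator gene, was 0.97 higher (0.41 to 1.06 over the scalings), and Lcorl, the paralog of Lcor, was 0.48 higher (0.44 to 0.57).

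In the precipitates the lists spread both ways. Over all genes, AGO2-RIP minus IgG-RIP was past 2-fold upward for 20.3% and downward for 22.2% in WT and for 10.5% and 9.92% in KO. The share of higher among these genes, 47.8% in WT and 51.3% in KO, depended on the scaling, with 28.9% to 68.5% in WT and 49.8% to 67.5% in KO. In WT, AGO2-RIP minus IgG-RIP was past 2-fold for 2 higher and 2 lower of the 7 genes of the NCoR complex. Sirt1, a deacetylase gene (1.83 in WT, 1.25 in KO), and Hdac3, the catalytic subunit (1.48 and 1.47), were higher in both genotypes, and Gps2, a subunit, was lower (-1.12 and -1.38). The KO counts for this list were 3 higher and 1 lower.

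For the CtBP and CoREST complex, 4 of 11 measured genes were higher and 2 lower in WT, and 2 of 10 higher and 1 lower in KO. Hdac2, a deacetylase gene, was 1.53 in WT and 1.60 in KO, and Rcor1, which encodes CoREST, was -2.54 and -0.77. Of the other corepressors, 2 of 13 were higher and 3 lower in WT and 0 of 12 higher and 1 lower in KO, with Hdac5 at -1.98 and -1.11 and Sin3a at -1.83 and -0.35. Their medians were 0.57, -0.18 and -0.53 in WT for the 3 lists, and 0.67, -0.03 and -0.36 in KO, against -0.24 and -0.19 for all genes. Since scaling moved the WT median of all genes by up to 0.37, the medians are to be read relative to it.

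The opposing machinery, the coactivators, had 4 of 12 measured genes higher and 1 lower in WT and 4 of 11 higher and 0 lower in KO. Ncoa6 (2.45 in WT, 0.30 in KO) and the acetyltransferase gene Kat2b (2.40 and 1.81) were the highest in WT. Of 28 nuclear receptor genes, 8 were above background on no array, and 16 could be measured, of which 5 were higher and 3 lower in WT and 3 higher and 4 lower in KO. Pparg (3.12 in WT, 1.35 in KO) and Ppard (2.78 and 0.86), lipid-sensing receptors, were the highest in WT, and Esrra, an orphan receptor of energy metabolism, was the highest in KO (4.71, against 1.26 in WT). The KO value of Esrra ran from 3.06 to 5.10 over the scalings. Its IgG-RIP signal was 1.75 in WT and -1.81 in KO, where the lowest spot above background was -2.15. Its AGO2-RIP signal was 3.01 in WT and 2.90 in KO, and AGO2-RIP minus input was 2.06 and 2.22. The medians were 0.30 for the coactivators in both genotypes, and 0.30 in WT and -0.17 in KO for the receptors. None of these genotype differences was tested.

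**Figure D5:**
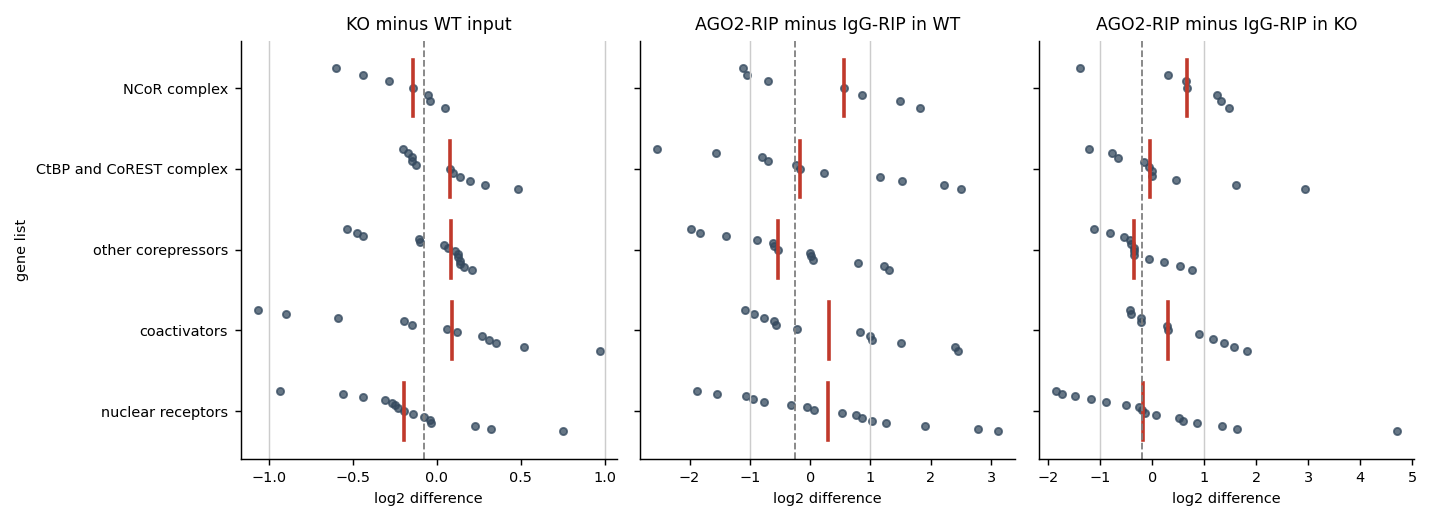
Log2 difference of each measured gene of the 5 partner lists (points) with the list median (red), the median of all genes (dashed) and the 2-fold sizes (light lines), for KO minus WT input and for AGO2-RIP minus IgG-RIP in WT and KO; the horizontal scales differ between panels. In input all points but Ncoa7 (-1.07; -0.37 after normexp) lie within 2-fold, and over IgG-RIP the lists spread to both sides, to 3.12 for Pparg in WT and 4.71 for Esrra in KO (3.06 to 5.10 over the scalings).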

How the data were processed

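The 6 samples are 1-colour Agilent arrays of 60-base probes annotated on mm9. The authors deposited the output of Agilent Feature Extraction, given as version 10.7.3.1 in the submitters' processing notes. The values used are its processed signal, per the file headers a background-subtracted intensity in linear units, not normalized between arrays, and flags mark spots above background, saturated or outlying (other deposited columns used here are flags, names and probe sequences). Pre-amplification and equal cDNA mass mean that only relative abundance is compared, and random-primed labelling does not keep strand.

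From these, each intensity was put on the log2 scale, the 75th percentile of the 59305 non-control spots of that array was subtracted, and spots of a probe were averaged. Outlier spots led to the removal of 54 probes, which kept 55627. A gene was its probe with the highest mean. Names come from the files, updated through RefSeq (GRCm38.p6, names and miRNAs only), and coordinates from the files. Differences within 1 array per group are plain differences. The additive test was limma 3.58.1 (lmFit, eBayes, two-sided, Benjamini-Hochberg adjustment over 26873 probes) in R 4.3.3, tested on simulated data. Python 3.11.15 (numpy 2.4.6, pandas 2.3.3, matplotlib 3.10.9) did the rest. Each group has 1 array, so the number of arrays limits the precision. All 6 lay on 1 slide with 1 scan.

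The named genes are the members, Dicer1 and sex-linked genes as checks, the 5 genes nearest to Lcor, and up to 2 highest and 2 lowest genes of a list per comparison, of which some are not reported here. Ncoa1 and Lcorl in input and the marker exceptions were singled out after their values were seen. The members, lists and tests were chosen with earlier results of these data known. Alternatives were median centring, quantile scaling, a percentile over probes above background on all 6 arrays, normexp with an offset of 50, outlier spots kept, the median of the differences over a gene's measured probes, other filters, a fit without the other factor, and leaving out each array. Those for the other 4 members and the lists were added after the data were seen.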

Additional observations from a re-analysis of the deposited data

Results flagged for a closer look

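The genotypes differed in sign, with both values larger than the scanner error, for 4 pairs of AGO2-RIP differences (from IgG-RIP or input) among the members, and none of these differences between genotypes was tested. IgG-RIP minus input, not counted here, also differed in sign for Ncor1 probe 1. It was 1.74 ± 0.21 in WT and -0.51 ± 0.21 in KO (0.06 with the percentile over probes above background on all 6 arrays). For Lcor probe 1, AGO2-RIP minus input was 2.22 in WT and -0.23 in KO, where the KO value is small and turns positive under other scalings. For Ncor1 probe 1, AGO2-RIP minus IgG-RIP was -2.09 in WT and 0.82 in KO, and AGO2-RIP minus input was -0.35 in WT and 0.31 in KO, the last pair losing its signs under other scalings (0.02 in WT with the percentile over probes above background on all 6 arrays, -0.19 in KO with median centring). By Ncor1 probe 2, AGO2-RIP minus IgG-RIP was negative in both genotypes (-0.66 in WT and -2.88 in KO). Probe 3 gave -0.55 ± 0.36 in WT and 0.26 ± 0.30 in KO, and probe 4 gave -1.86 in KO. The median over the measured Ncor1 probes in KO was -0.80. For Ctbp2, AGO2-RIP minus IgG-RIP was 0.81 in WT and -0.97 in KO.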

How the results depend on the processing

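No paired analysis was possible because each group has 1 array and the labels carry no replicate numbers. Lcor in KO minus WT input ran from 1.996 (normexp) through 2.16 (quantile scaling) to 2.49, with the sign kept in 5 of 5 alternatives, and in KO minus WT IgG-RIP from 1.60 (normexp) to 2.52. The median over its probes could be given for Lcor only in KO minus WT AGO2-RIP (-0.42), since probe 2 was dim elsewhere. AGO2-RIP minus IgG-RIP of Lcor in WT was 3.24 with median centring, 2.57 with the percentile over probes above background on all 6 arrays and 2.32 with normexp. AGO2-RIP minus input of Lcor in WT was 1.94, 2.60 and 1.92 in the same order, and in KO it was -0.73 with median centring, 0.22 with quantile scaling and 0.33 with the percentile over probes above background on all 6 arrays. Its WT minus KO difference over IgG-RIP was 2.66 with median centring, 1.98 with the percentile over shared probes and 1.66 with normexp, and over input it was 1.96 with quantile scaling and 2.06 with normexp. The members past 2-fold changed from 2 to 1 (median over probes) or 3 (median centring, no filter on dim probes) for AGO2-RIP minus IgG-RIP in WT and from 0 to 1 in KO (quantile scaling, no filter on dim probes). For AGO2-RIP minus input they changed from 2 to 1 (percentile over shared probes, normexp) or 3 (median centring, quantile scaling) in WT and from 1 to 0 in KO (percentile over shared probes, normexp). Those past 2-fold in the genotype difference of AGO2-RIP minus input changed from 2 to 1 (median centring, normexp) or 3 (median over probes), and over IgG-RIP from 3 to 2 (median over probes). With the median of the differences over its measured probes, Ncor1 turned from -1.78 to 0.023 in KO minus WT IgG-RIP, where probes 2 and 3 gave values near 0. The cause of these shifts was not tested. Scaling moved the median of all genes by up to 0.56 in AGO2-RIP minus input in KO, 0.37 in AGO2-RIP minus IgG-RIP in WT and 0.09 in KO minus WT input, and limma's split for AGO2-RIP minus input moved from 744 higher and 784 lower to 586 and 1651 with median centring, 1443 and 3086 with normexp and 0 and 0 with quantile scaling. The members called by limma stayed at 0 in all 3 contrasts in every alternative run, with leave-one-out values from 0 to 0. For AGO2-RIP minus IgG-RIP, 253 probes were called higher and 9 lower with normexp, and 651 and 60 among the 16249 probes above background on all 6 arrays. With normexp the share of all genes past 2-fold was 0.627% in KO minus WT input and 24.7% in WT and 9.44% in KO for AGO2-RIP minus IgG-RIP, and the list genes past 2-fold over IgG-RIP were 2 in WT and 2 in KO for the NCoR complex (from 4 each), 1 in KO for the CtBP and CoREST complex (from 3), 0 in KO for other corepressors (from 1), 3 in WT for coactivators (from 5, also with quantile scaling), and 4 in WT and 2 in KO for nuclear receptors (from 8 and 7). The signal over background limits Lcor probe 2, Nrip1 probe 2 and Ncor1 probe 4, for which 1, 0 and 3 of 11 differences were measured on every array and the others are bounds or have no value.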
